A study of Pinus pinaster with 66 samples.

Results

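The needles that maritime pine (Pinus pinaster) had formed in the year of sampling were followed from July to September, and the question asked of them was how near their transcript profile came to that of needles from earlier years. These needles are called Whorl 0, the growth of 2012. Whorls 1, 2 and 3 are the needles of 2011, 2010 and 2009 on the same branches. The comparison uses the 3 arrays of September Whorl 0 and the 3 arrays of July Whorl 0, which are 6 of the 66 arrays of the series, and every spot with a value on at least 2 arrays of each month. That rule kept 7101 of 8208 spots. The 18 arrays of Whorls 1 to 3 from the same months gave the profile against which Whorl 0 was set, and 6903 spots could be compared in all 8 groups of month and whorl.

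All groups came from 6 trees of 20 to 25 years growing in a natural stand, harvested repeatedly without any treatment and with no genotype given. RNA of the trees was pooled 2 by 2 before amplification, so a group has 3 pools, and which trees made which pool was not stated in the sources used here. The spread between arrays is therefore a spread between pools of the same few trees, and the p-values describe those trees. Amplified RNA of each pool was labelled with Cy3 and hybridized to the cDNA array PINARRAY2, and the Cy5 channel of all arrays held 1 common reference, pooled RNA from January. A month field beside the reference in the labels names other months, and January was taken from the labels' source field and the methods.

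A pine needle grows from its base within a fascicle during the first season, then thickens its walls, completes its cuticle and photosynthetic apparatus, and stays on the branch for several years. During expansion it imports sugar and builds wall and membrane, whereas a mature needle exports sugar and adjusts to the season. Flavonoids, made from phenylalanine through chalcone synthase and the enzymes after it, accumulate in the epidermis of young conifer needles, where they absorb ultraviolet light and deter herbivores.

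The deposited values are log ratios, read here as log2 ratios to the January pool. The base of the logarithm and the channel in the numerator are not named in the sources used here, and positive values were taken to mean that the needles held more of a transcript than the pool did, the likely direction given how the study describes its genes. Whether a gap between Whorl 0 and older needles narrowed or widened does not depend on that sign. Between 6519 and 8076 spots had a value on an array, with 7161 to 7369 in July Whorl 0 and 7017 to 7436 in September Whorl 0. The median of every array is 0 after the authors' normalization, so a change is relative to the middle of the spots on the array, and a shift of all transcripts together could not be seen. In whole needles, fewer cells of a type and less transcript per cell cannot be told apart. The root mean square SD between replicates was 0.12 in July Whorl 0 and 0.14 in September Whorl 0, within the 0.12 to 0.16 of the older groups. No scan or hybridization batch is given in the labels or in the table used.

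From July to September 805 spots rose and 808 fell in Whorl 0 in limma's test at an adjusted p under 0.05, together 22.7% of the spots tested. After quantile normalization 514 rose and 411 fell, 925 in all, and without the arrays of replicate number 1 the count was 1061. The decreases reached further than the increases, with 57 spots lower and 22 higher by more than 1 on the log2 scale. Differences ran from -2.40 to 1.74, and the median standard error of a difference was 0.09. Older needles changed as well over these months. In the mean of Whorls 1 to 3, 1644 spots rose and 1577 fell, 46.7% of those tested, in a comparison of 9 arrays with 9 that has a smaller median standard error of 0.05. Those arrays are whorls of the same trees and were taken as independent. With pools within a month as random blocks, 2626 spots were called in older needles and 1661 in Whorl 0. The size of the change was alike when the sampling error of the means was subtracted. The root mean square was 0.27 in Whorl 0 over 7101 spots and 0.26 in the older whorls over 6903. Across the 6903 spots the changes of the new and of the older needles had a correlation of 0.63. The arrays on the 2 sides are different, but the trees and the January reference are shared.

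Most spots that rose in Whorl 0 rose in older needles too, and a smaller share of those that fell also fell there. Of 797 spots that rose in Whorl 0 and were tested in both, 673 (84.4%) also rose in Whorls 1 to 3, 120 were not called and 4 fell. Their median rise was 0.40 in Whorl 0 and 0.30 in the older whorls. Of 766 spots that fell in Whorl 0, 415 (54.2%) also fell in Whorls 1 to 3, 280 were not called and 71 rose. The median fall was -0.39 in Whorl 0 and -0.14 in the older whorls. Spots picked by their change in Whorl 0 favour a large change there, and those picked by their fall in older needles had the opposite order, with medians of -0.12 in Whorl 0 and -0.21 in the older whorls. A change that differed between Whorl 0 and the older whorls was called for 62 of the spots that rose and for 298 of those that fell. Read from the other side, 40.9% of the spots that rose and 26.3% of those that fell in older needles did so in Whorl 0, where fewer arrays make a call harder to reach.

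**Figure D1:**
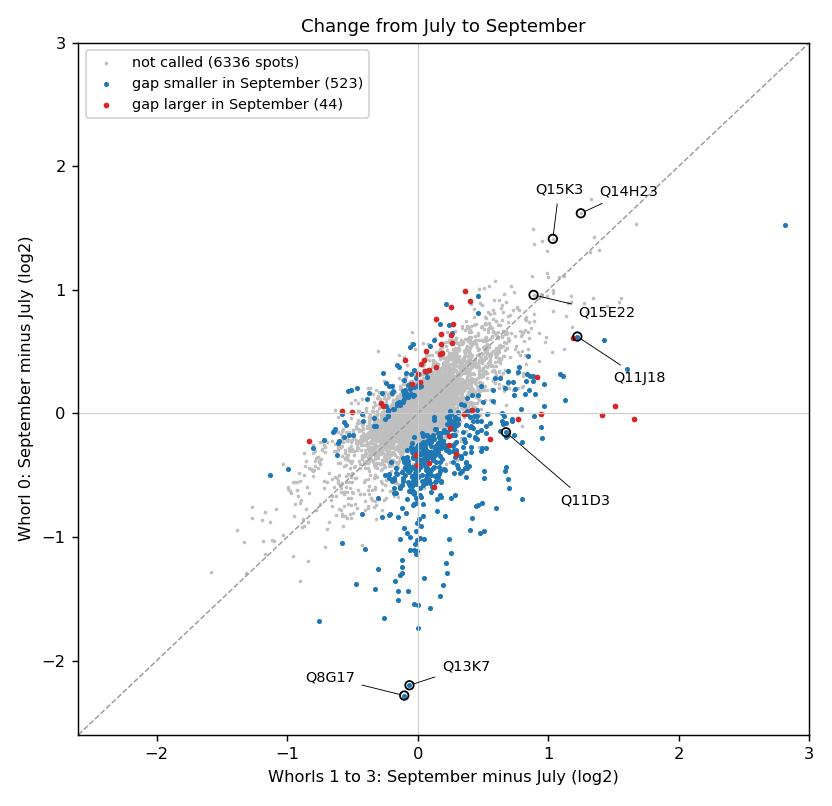
Each point is 1 of 6903 spots, with its change from July to September in Whorls 1 to 3 on the horizontal axis and in Whorl 0 on the vertical axis (log2). Blue points changed differently in Whorl 0 and had a smaller gap to the older needles in September (523 spots), red points had a larger one (44), and the dashed line marks equal change; the blue points lie mostly below it.

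The gap between the new and the older needles was wide in July and narrow in September. In July 1277 spots lay above the mean of Whorls 1 to 3 in Whorl 0 and 1253 below it, 36.7% of those tested. In September 375 lay above and 158 below, or 7.72%. Gaps of more than 1 on the log2 scale numbered 128 above and 12 below the older needles in July, and 30 above and 11 below in September. With the sampling error subtracted, the root mean square gap went from 0.30 to 0.17, a ratio of 0.565. The narrowing was seen against each older whorl, from 1407 to 271 called spots against Whorl 1 (20.4% and 3.93%), from 2274 to 319 against Whorl 2 (32.9% and 4.62%), and from 1836 to 429 against Whorl 3 (26.6% and 6.21%). Among the older whorls themselves, at most 132 spots were called in July, between Whorls 1 and 3 (1.91%), and at most 3 in September (0.0435%). Between Whorls 2 and 3 in July limma called none, with 486 spots at an unadjusted p under 0.05.

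These counts moved with single libraries and settings. Without July Whorl 0 replicate 2 the July count was 1560, and without September Whorl 0 replicate 1 the September count was 285. When the correlation of pools within a month was estimated, the July count was 3092 and the September count 914. Quantile normalization left 405 spots in September, of which 59.3% were higher in Whorl 0, against 70.4% of the 533.

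Single arrays gave the same order. The root mean square difference of a Whorl 0 array from the mean of the 9 older arrays of its month, over 6128 spots measured on all 24 arrays, was 0.30, 0.35 and 0.31 in July and 0.25, 0.22 and 0.19 in September. All September arrays were nearer to the older needles than all July arrays, with means of 0.22 ± 0.03 and 0.32 ± 0.02 (SD, n = 3). An exact two-sided permutation test gave p = 0.1, the smallest that 20 assignments of 3 arrays against 3 allow, and 0.125 after adjustment over 5 such tests. Whorl 1, needles 1 season older, shows how near a mature whorl comes when it is measured in the same way. Its distance from the mean of Whorls 2 and 3 was 0.18 ± 0.04 in July and 0.15 ± 0.01 in September (SD, n = 3), while that of Whorl 0 was 0.34 ± 0.02 and 0.23 ± 0.03. In both months every Whorl 0 array was farther from Whorls 2 and 3 than every Whorl 1 array (exact two-sided permutation test, p = 0.1 each, 0.125 adjusted). September Whorl 0 had come closer, and its mean distance was 1.52 times that of Whorl 1, with the spread between replicates still in both distances. With the sampling error of the means subtracted, September Whorl 0 lay 0.17 from Whorl 2 and 0.18 from Whorl 3. Whorl 1 lay 0 and 0.06 from them, where 0 stands for no difference beyond that error. For Whorl 1 the difference between the months gave p = 0.4 in the same exact test.

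The new needles of each month resembled the older needles of that month most. Across 5823 spots measured on each of the 65 arrays, the July Whorl 0 arrays had correlations of 0.65, 0.55 and 0.63 with older needles of July. With older needles of May they had 0.61, 0.51 and 0.54, and with those of September 0.47, 0.50 and 0.54. The September Whorl 0 arrays had 0.75, 0.74 and 0.80 with older needles of September and only 0.36, 0.42 and 0.40 with those of July. The July values overlap between the months, whereas the September values do not. With the sampling error subtracted, the root mean square difference of the July Whorl 0 mean from the older needles was 0.30 for those of July and 0.32 for those of September. These are correlations across spots, which are not independent, and all arrays share the reference.

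**Figure D2:**
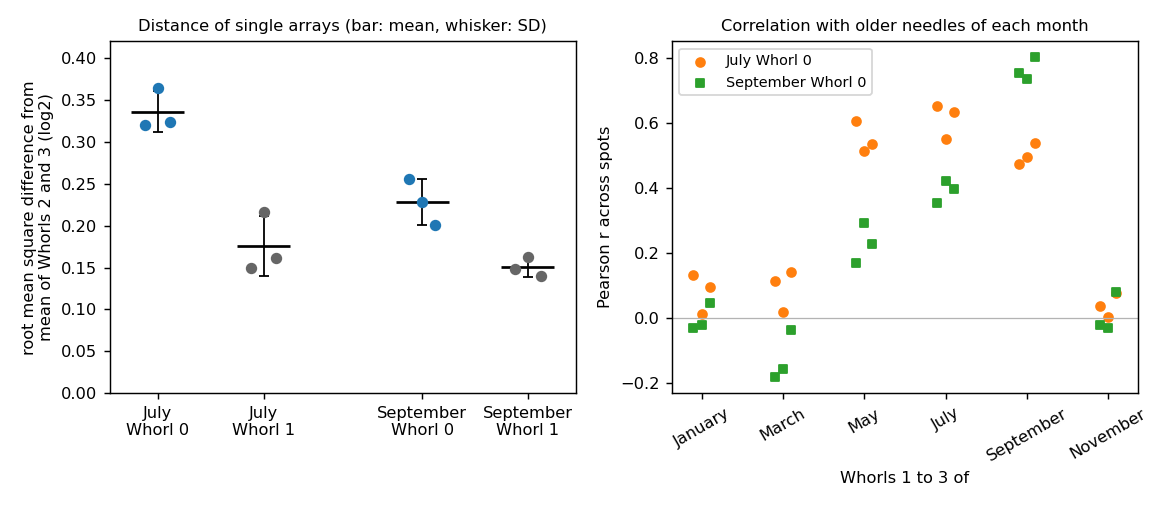
Left, the root mean square difference of each array from the mean of Whorls 2 and 3 of its month (log2), for Whorl 0 (blue) and Whorl 1 (grey), with mean and SD (n = 3); Whorl 0 drops from 0.34 to 0.23 and stays above Whorl 1. Right, the Pearson correlation of each Whorl 0 array with the mean of Whorls 1 to 3 of 6 months, for July (circles) and September (squares); the squares peak at September, between 0.74 and 0.80.

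The change from July to September itself differed between Whorl 0 and Whorls 1 to 3 at 567 spots, 8.21% of those tested, which is the direct test of whether a gap moved. At 523 of them (92.2%) the gap was smaller in September and at 44 it was larger, 7.58% and 0.637% of the spots. Of the 523, 438 were higher in Whorl 0 in July and 85 lower. Their median gap in size was 0.54 in July and 0.11 in September, and 425 had no called gap left. These spots were picked for a smaller gap in September, so the drop in the median follows from the choice and does not measure convergence. Called changes lay on either side of these gaps. At 198 spots only Whorl 0 had a called change, at 185 only the older needles, at 74 both changed in opposite directions and at 61 in the same direction, and at 5 neither change was called on its own. The sign of the gap had turned at 170 of the 523, with a called gap in September at 2 of these.

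The count of 567 was 254 without the arrays of replicate number 2 and 348 without those of number 3. It was 235 after quantile normalization, of which 203 narrowed, and 880 with an estimated correlation of pools within a month. Without July Whorl 0 replicate 2, 26 gaps widened in place of 44, and without September Whorl 0 replicate 3, 80 did.

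Gaps that were called in July mostly kept their sign and lost size. Of the 1277 spots higher in Whorl 0 in July, 84.4% were on the same side in September and 294 (23%) were still called higher, with a median gap of 0.38 in July and 0.13 in September. The 1253 lower spots had smaller gaps to begin with, a median of -0.18 in July and -0.07 in September, and 99 (7.9%) were still called lower. The July medians come from the values that picked the spots. Spots picked by their September gap had also been apart in July, since the 375 higher ones had a median of 0.48 in July and 0.38 in September. The 158 lower ones had a median of -0.24 in July and -0.32 in September. In all, 393 spots were called in the same direction in both months, 15.5% of the July calls and 73.7% of the September calls, and 133 September calls had no call in July. The gaps of the 2 months, which share the trees and the reference but no array, had a correlation of 0.65 across spots.

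**Figure D3:**
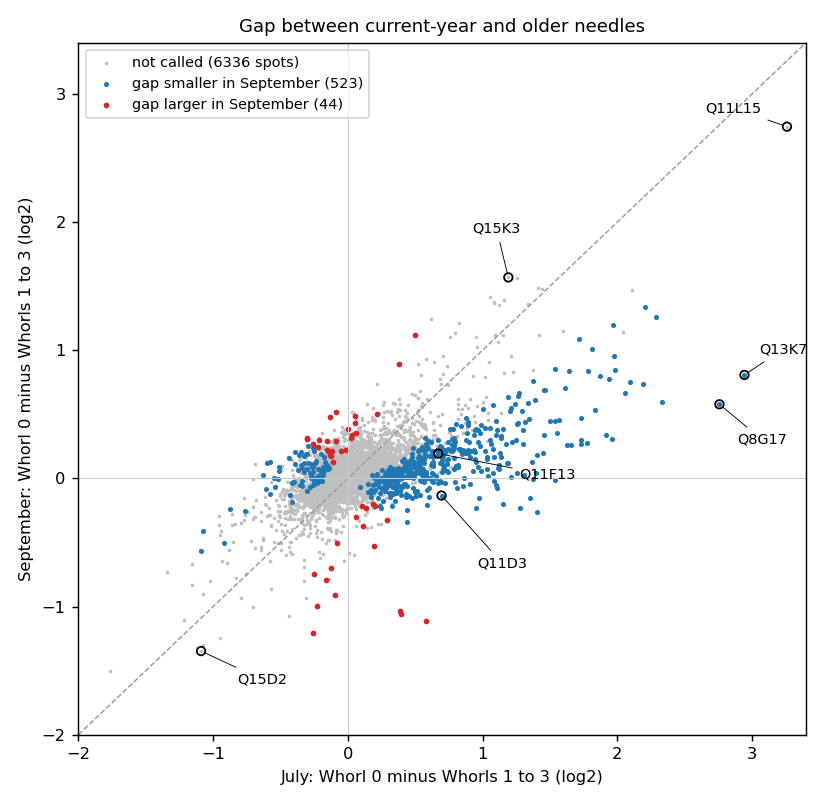
Each point is 1 of 6903 spots, with the July gap, Whorl 0 minus the mean of Whorls 1 to 3 (log2), on the horizontal axis and the September gap on the vertical axis; the dashed line marks equal gaps. The 523 blue spots, whose gap narrowed in the test of the change, stretch along the horizontal axis, while Q15K3 and Q11L15 stay near the line and the 44 red spots widened.

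Gene names for the array spots come from the study, which names 43 spots in its tables and text, because the deposited table holds spot numbers alone. The study picked them on these same arrays for how they followed whorl, temperature or rain, so their direction is not independent evidence. Of the 43, 38 were tested in Whorl 0, where 14 rose, 6 fell and 18 were not called, beside 11.3% higher and 11.4% lower over all spots. In 36 spots the change could be set against older needles, and it differed in 6, with 5 lower and 1 higher in Whorl 0 (6.61% and 1.61% of all spots).

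The 5 flavonoid spots that the study tied to whorl stayed apart. At each of them, all Whorl 0 arrays lay above all older arrays with a value, in July and in September. The gaps and the change in older needles could be tested at 4 of the 5. The study listed the 5 spots for their correlation with whorl on these same arrays, so a gap to older needles was part of how they were picked. Other flavonoid genes that the study places in its green and tan modules were not examined. Of the 5 flavonoid spots, 4 rose in Whorl 0, with a median change of 0.97 beside 0.00 over all spots tested, where 11.3% rose. That count was 3 without any single Whorl 0 array and 2 without the arrays of replicate number 3. The 4 spots that could be compared all rose in older needles too (23.8% of all spots rose), with a median of 0.77. All 4 were above the older needles in July and in September, with median gaps of 1.13 and 1.25, beside -0.04 and -0.01 over all spots, of which 18.5% and 5.43% were called higher. The change differed between Whorl 0 and older needles at none of these 4 by limma, nor at any of them at an unadjusted p under 0.05.

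Chalcone isomerase (Q15K3), which closes the ring of the chalcone to give a flavanone, had log2 ratios of 0.59, 0.78 and 0.38 in July Whorl 0 and of 1.94, 1.96 and 2.09 in September Whorl 0. In older needles its levels ran from -0.86 to -0.30 with a median of -0.63 in July, and from -0.30 to 0.97 with a median of 0.51 in September. All September arrays of Whorl 0 were above all July arrays, an order found at 18.9% of spots and its reverse at 18.5%, together 37.4%, and in each month all Whorl 0 arrays were above all 9 older ones, found at 12.4% of spots in July and 4.81% in September. The difference between the months was 1.41 ± 0.27 (SE, adjusted p = 8.06e-05) in Whorl 0 and 1.04 ± 0.16 (adjusted p = 3.41e-07) in older needles. Its gap was 1.19 ± 0.22 in July and 1.57 ± 0.22 in September, and the changes differed by 0.38 ± 0.31 (adjusted p = 0.559).

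Flavanone 3-hydroxylase (Q15G15), the next enzyme, which makes dihydroflavonols, had 0.82, 0.83 and 0.64 in July Whorl 0 and 1.67, 1.73 and 1.81 in September Whorl 0. Older needles lay between -0.64 and -0.09 in July and between 0.14 and 0.96 in September. Again neither month nor age overlapped in Whorl 0, and the gap was 1.09 ± 0.17 in July and 1.12 ± 0.17 in September (SE). The difference between the 2 changes was 0.02 ± 0.24 (adjusted p = 0.97). The older needles of September overlapped at this spot with the new needles of July.

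Chalcone synthase, the enzyme of the first committed step, is on the array at least at spots Q18F13 and Q15M17. Spot Q18F13 had 0.54, 0.73 and 0.51 in July Whorl 0 and 1.12, 1.52 and 1.59 in September, a rise of 0.82 ± 0.22 (SE, adjusted p = 0.00365, and 0.085 without the arrays of replicate number 3). Spot Q15M17 had 0.62, 0.79 and 0.55 in July and 0.99, 1.10 and 1.04 in September, and its difference of 0.39 ± 0.16 (SE) missed the threshold (adjusted p = 0.0645) although the months did not overlap. Both lay above all older arrays in both months, with gaps of 1.16 and 1.39 at Q18F13 and of 0.96 and 1.02 at Q15M17. The sequences of the probes were not used here, so how far these spots measure different genes of the family was not tested.

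Flavonoid-3'-5'-hydroxylase (Q21C21), which adds hydroxyl groups to a ring of the flavonoid, also rose. Its values were 1.16, 1.20 and 1.19 in July Whorl 0 and 2.33, 1.99 and 2.16 in September Whorl 0, a rise of 0.97 ± 0.36 (SE, adjusted p = 0.0444). This call was lost without any 1 of the 6 arrays (adjusted p from 0.0579 to 0.137). The older arrays with a value ran from -1.93 to -0.19 in July and from -0.52 to 1.40 in September, all below Whorl 0. An older group had fewer than 2 values, so the gap of this spot was not tested.

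The study tied another 5 spots to whorl. Counted together with the flavonoid spots, 8 of 10 rose in Whorl 0 with a median of 0.86 (11.3% of all spots), and all 9 that were tested in older needles rose there with a median of 0.62 (23.8%). The 8 became 5 without the arrays of replicate number 3. The gap was called at 9 of 9 in July (median 1.09, 18.5% of all spots) and at 9 of 9 in September (median 1.15, 5.43%), and the difference of the changes at none by limma, with 1 of 9 (Q10C3) at an unadjusted p under 0.05. The armadillo repeat protein Q17L11 had 0.33, 0.71 and 0.42 in July and 1.11, 1.55 and 1.55 in September, a rise of 0.92 ± 0.17 (SE, adjusted p = 6.43e-05). The 40S ribosomal protein Q17O7 had 0.49, 0.63 and 0.47 in July and 1.13, 1.53 and 1.64 in September. In September Whorl 0 both spots were close to chalcone synthase Q18F13, with 1.12, 1.52 and 1.59. Whether these spots measure separate transcripts was not tested. The July and September arrays of Q17L11 and Q17O7 did not overlap. Neither did those of Q16H14, annotated only as a protein-binding protein, nor those of Q13K2, a part of the Cop9 complex that acts on ubiquitin ligases. The rise at Q13K2, 0.40 ± 0.15 (SE, adjusted p = 0.0475), was lost without any single Whorl 0 array other than September replicate 1, with an adjusted p of up to 0.163.

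Geranylgeranyl diphosphate synthase (Q10C3) makes the precursor of diterpene resin acids, carotenoids and the chlorophyll side chain. It had 1.04, 1.11 and 1.31 in July Whorl 0 and 1.37, 1.49 and 1.32 in September Whorl 0, a difference of 0.24 ± 0.18 (SE, adjusted p = 0.372). In older needles it rose by 0.69 ± 0.10 (adjusted p = 1.58e-07). Its gap was 1.60 ± 0.14 in July and 1.15 ± 0.14 in September, and the changes differed by -0.45 ± 0.20, short of the threshold (adjusted p = 0.192). All Whorl 0 arrays were above all older arrays in both months.

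**Figure D4:**
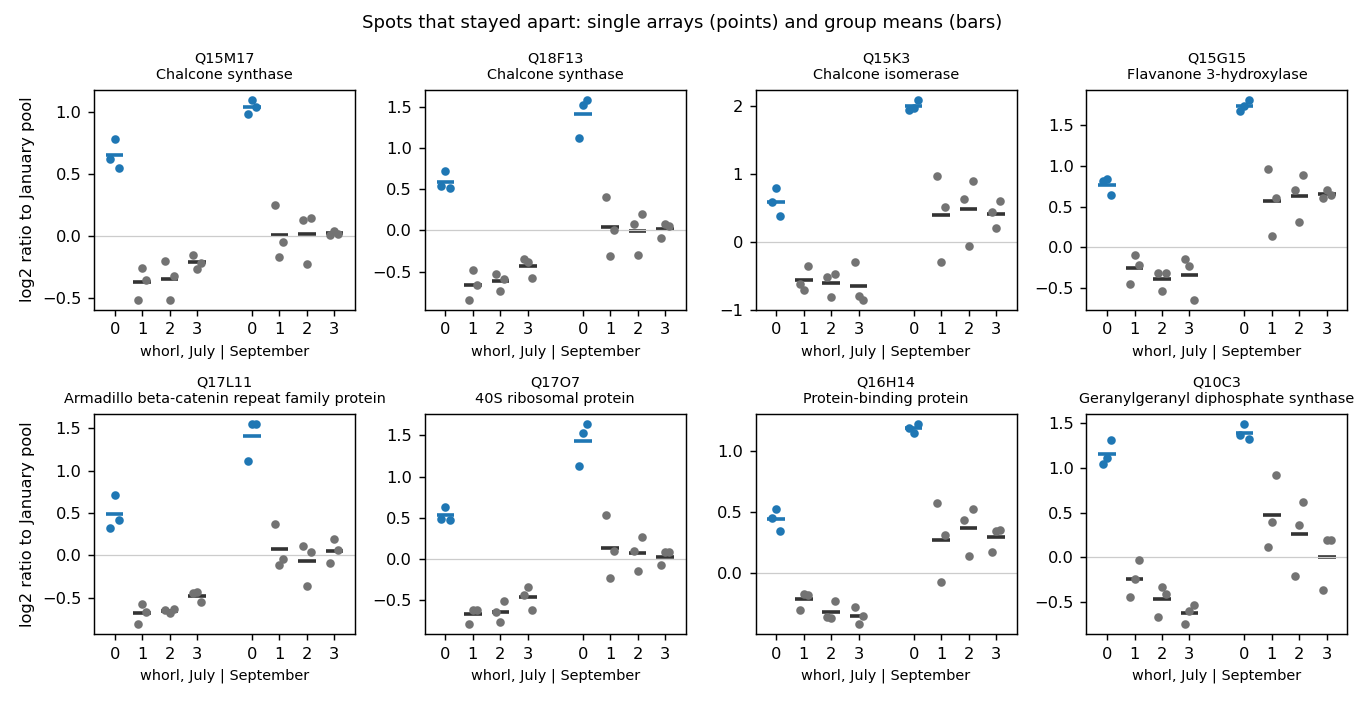
Log2 ratio to the January pool on every array for 8 spots of the whorl list, by whorl (0 to 3) in July and, to the right, in September; blue is Whorl 0, grey is Whorls 1 to 3, and bars are means of up to 3 arrays. Blue points lie above all grey points of the same month in each panel.

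Of the 6 named spots whose change differed, 4 were among the genes that the study tied to rain. In the older needles 9 of these 10 rose and 1 fell, with a median of 0.73, beside 23.8% and 22.8% of all spots. In Whorl 0 5 rose and 1 fell, with a median of 0.36, beside 11.3% and 11.4%, and the 5 ran from 3 to 6 over the alternatives, with 3 without the arrays of replicate number 1 and after quantile normalization. In July 7 of 10 were higher in Whorl 0 (median gap 0.34, 18.5% of all spots), and in September none was higher and 1 was lower by limma (median 0.01, with 1 higher and 1 lower at an unadjusted p under 0.05, 2.29% of all spots lower). The change differed at 4 of 10, all lower in Whorl 0, beside 6.61% of all spots. Over the alternatives that count ran from 2 to 5, with 2 without replicate 2 or 3 of either month of Whorl 0. The count of the July gap ran from 4, without July Whorl 0 replicate 2, to 7.

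The mitochondrial dicarboxylate carriers, which exchange malate and related acids across the inner membrane, came together with a called change in the older needles alone. Spot Q11D3 had -0.07, 0.06 and -0.09 in July Whorl 0 and 0.03, -0.45 and -0.14 in September Whorl 0. Older needles ran from -0.86 to -0.45 in July (median -0.72) and from -0.31 to 0.37 in September (median -0.12). The months overlapped in Whorl 0, whereas Whorl 0 was above all older arrays in July and among them in September. The difference between the months was -0.15 ± 0.11 (SE, adjusted p = 0.374) in Whorl 0 and 0.68 ± 0.06 (adjusted p = 2.86e-12) in older needles, and these changes differed by -0.83 ± 0.13 (adjusted p = 4.92e-06). The gap was 0.70 ± 0.09 in July and -0.13 ± 0.09 in September.

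Spot Q12A19, with the same description, showed the same pattern. It had -0.12, -0.08 and -0.07 in July Whorl 0 and -0.00, -0.36 and -0.12 in September, while older needles went from a median of -0.54 to one of -0.03. The gap was 0.47 ± 0.08 in July and -0.15 ± 0.08 in September (SE), and the changes differed by -0.63 ± 0.11 (adjusted p = 3.14e-05). The July arrays of Whorl 0 lay within the range of the older needles of September, at this spot from -0.23 to 0.29.

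Heat shock protein 70 (Q17J7), a chaperone, had -0.01, 0.32 and 0.22 in July Whorl 0 and 0.83, 0.24 and 0.36 in September Whorl 0, with the months overlapping. In older needles it rose from a median of -0.47 to 0.29, and the gap went from 0.62 ± 0.14 to 0.04 ± 0.14 (SE). The test of the difference was near its threshold (-0.59 ± 0.19, adjusted p = 0.045), and was lost without replicate 2 or 3 of either month of Whorl 0 (up to 0.217). 

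A fatty acid/sphingolipid desaturase (Q11J18), which puts double bonds into membrane lipids, rose in both and by more in the older needles. It had -1.60, -1.41 and -1.51 in July Whorl 0 and -0.80, -0.95 and -0.91 in September, with older medians of -2.39 and -1.11. Whorl 0 was above all older arrays in both months, but by 0.83 ± 0.13 in July and 0.23 ± 0.13 in September (SE). The September gap was not called (adjusted p = 0.33). The changes differed by -0.60 ± 0.19 (adjusted p = 0.0349). That call too was lost without replicate 2 or 3 of either month of Whorl 0 (up to 0.128) and after quantile normalization (0.418).

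Among the other rain spots, 4 rose in Whorl 0 and in older needles without a called difference between the changes. Aminoalcoholphosphotransferase 1 (Q15E22) adds the head group in the synthesis of phosphatidylcholine and phosphatidylethanolamine. It had -0.90, -0.83 and -0.90 in July Whorl 0 and 0.12, 0.12 and 0.02 in September Whorl 0. It rose by 0.96 ± 0.09 (SE, adjusted p = 1.41e-11) there and by 0.89 ± 0.05 in older needles, overlapped with the older arrays in both months, and its changes differed by 0.07 ± 0.10 (adjusted p = 0.774). The 3-hydroxy-3-methylglutaryl synthase Q19M11 of the mevalonate pathway rose by 0.51 ± 0.15, the endoplasmin precursor Q14J11, a chaperone of the endoplasmic reticulum, by 0.48 ± 0.12, and Q2I24, without description, by 0.38 ± 0.10 (SE). In older needles the rises were 0.80, 0.79 and 0.60. These 3 had July gaps of 0.32, 0.36 and 0.21 and September gaps of 0.03, 0.05 and -0.01, but the difference between the changes missed the threshold at each (adjusted p from 0.191 to 0.374). At Q14J11 it was called without September Whorl 0 replicate 1 (adjusted p = 0.0393), while the rise there was not (0.0678). At Q19M11 the rise was lost without the arrays of replicate number 3 (0.0758). The July gaps of Q2I24 and Q19M11 were near the threshold (adjusted p = 0.0493 and 0.0379) and were lost without July Whorl 0 replicate 1 (0.117 and 0.123) or replicate 2 (0.262 and 0.0912), that of Q19M11 also without replicate 3 (0.0772). That of Q14J11 was lost without July Whorl 0 replicate 2 (0.0752).

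Alcohol dehydrogenase (Q17K21), which interconverts acetaldehyde and ethanol, was the named spot that stood below older needles in September. It had -0.91, -1.06 and -0.93 in July Whorl 0 and -0.60, -0.62 and -0.66 in September Whorl 0. The months did not overlap, and the difference of 0.34 ± 0.13 (SE) missed the threshold (adjusted p = 0.0501). Older needles rose by 0.57 ± 0.08, and in September all Whorl 0 arrays were below all older arrays, an order found at 2.38% of spots, with a gap of -0.46 ± 0.11 (adjusted p = 0.00255). The gap was -0.23 against Whorl 1 alone (adjusted p = 0.414) and -0.37 without the arrays of replicate number 3 (0.0612), neither of them called. The changes themselves differed by -0.23 ± 0.15 (adjusted p = 0.433), so a widening was not shown.

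Both spots described as auxin-responsive proteins, a class of genes that auxin induces, fell in new and in older needles. Spot Q5C1 had 0.99, 0.95 and 1.26 in July Whorl 0 and 0.65, 0.30 and 0.51 in September, a change of -0.58 ± 0.18 (SE, adjusted p = 0.0121). Spot Q1J15 had 0.88, 0.96 and 1.12 in July and 0.69, 0.22 and 0.38 in September, a change of -0.56 ± 0.11 (adjusted p = 5.86e-05). The fall at Q5C1 was lost without July replicate 3 or September replicate 2 of Whorl 0 (up to 0.0759), and after quantile normalization both were (0.513 and 0.0694). The older needles had -0.60 and -0.58, and the changes differed by 0.02 ± 0.20 and 0.02 ± 0.12. At both the Whorl 0 arrays lay among the older arrays in July and in September.

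Myb transcription factors of the R2R3 type, many of which control phenylpropanoid and wall genes in plants, were measured at spots Q11F13 and Q16P17. Spot Q11F13 had 0.77, 0.80 and 0.69 in July Whorl 0 and 0.26, 0.26 and 0.27 in September Whorl 0, and older needles had medians of 0.07 and 0.08. The fall of -0.49 ± 0.08 (SE, adjusted p = 5.43e-06) was met by -0.01 ± 0.05 in older needles, and the changes differed by -0.48 ± 0.09 (adjusted p = 0.000197). The gap went from 0.67 ± 0.06 to 0.19 ± 0.06. Every Whorl 0 array was still above every older array in September, although that gap was not called (adjusted p = 0.0548). After quantile normalization the difference was not called (adjusted p = 0.198).

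Spot Q16P17 was the 1 named spot whose gap widened. It had 0.06, 0.27 and 0.12 in July Whorl 0 and 0.21, 0.43 and 0.53 in September Whorl 0, so that the months overlapped, and older medians were -0.10 and -0.14. The difference between the months of 0.24 ± 0.08 (SE, adjusted p = 0.0226) was lost without any of 4 single Whorl 0 arrays, July replicates 1 and 3 and September replicates 2 and 3 (up to 0.174), and after quantile normalization (0.122). Whorl 0 overlapped with older needles in July, where the Whorl 1 arrays reached 0.16, and was above all of them in September. The gap was 0.22 ± 0.06 in July and 0.50 ± 0.06 in September (SE), and the changes differed by 0.29 ± 0.09 (adjusted p = 0.0413). Without July replicate 1 or 3, or without September replicate 2 or 3, of Whorl 0 this call was lost (adjusted p up to 0.187).

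For Myb5 (Q7N23), which had 0.22, -0.06 and -0.42 in July and -0.83 and -0.68 on the 2 September arrays with a value, the fall was -0.67 ± 0.15 (adjusted p = 0.000542). Its change differed from that of older needles by -0.49 ± 0.17, short of the threshold (adjusted p = 0.0676), and was called without July Whorl 0 replicate 3 (0.00942).

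**Figure D5:**
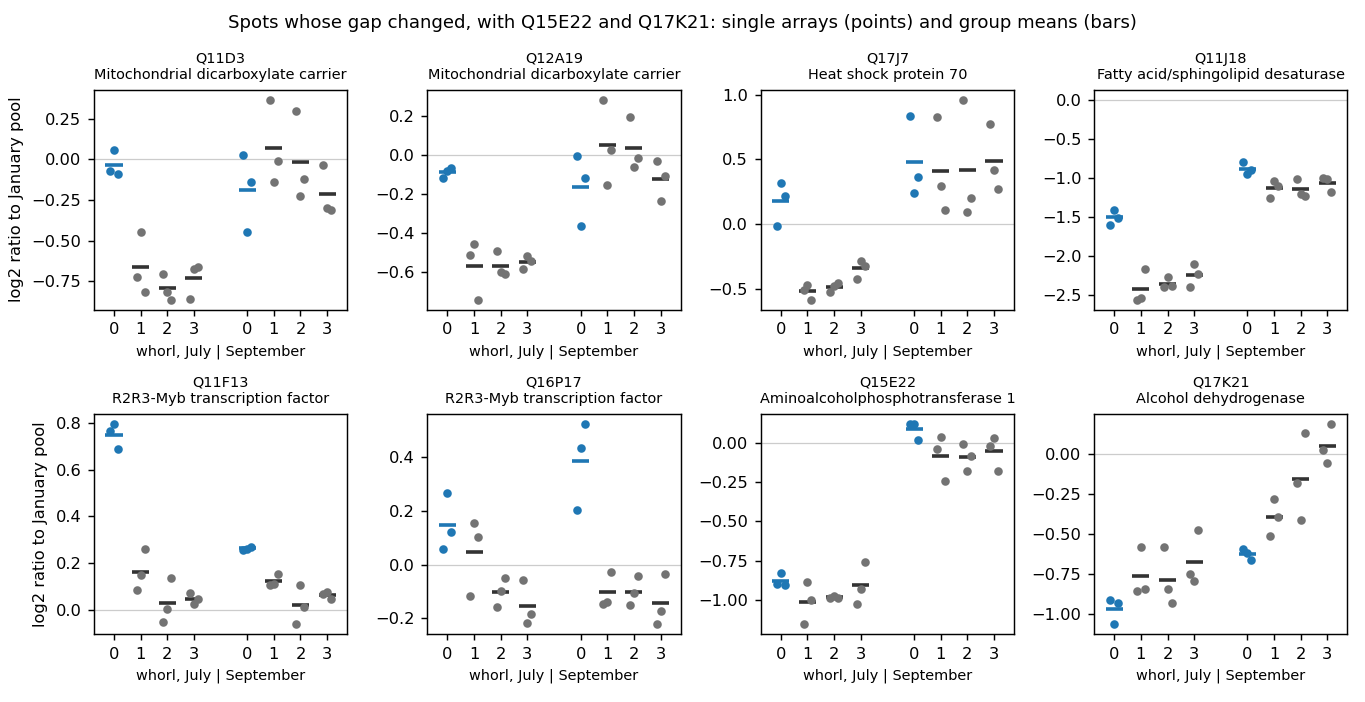
Log2 ratio to the January pool on every array for 8 named spots, by whorl (0 to 3) in July and, to the right, in September; blue is Whorl 0, grey is Whorls 1 to 3, and bars are means of up to 3 arrays. At Q11D3 and Q12A19 the grey points climb to the blue ones, at Q11F13 the blue points drop towards the grey, at Q16P17 they part, and Q15E22 rises alike in all whorls.

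Spots that the study tied to temperature were called in Whorl 0 about as often as all spots. Of 10, 2 fell and none rose by limma (3 and 0 at an unadjusted p under 0.05), beside 11.4% of all spots that fell and 22.7% called in either direction. Their median change was -0.12, beside 0.00 over all spots, where the median size of a change regardless of sign was 0.11. In older needles 7 of 10 fell, with a median of -0.26 (22.8% of all spots fell). In July 4 of 10 were lower in Whorl 0 (18.2% of all spots), a count that was 1 without July Whorl 0 replicate 1 or 2, 2 without replicate 3 and 0 without the arrays of replicate number 2 in all groups. In September none was called by limma (2 higher at an unadjusted p under 0.05). The difference between the changes was called by limma at none of them, adjusted or not. The 2 that fell in Whorl 0 were Q16E20, a 3'-5'-exonuclease domain protein, by -0.27 ± 0.07 (SE, adjusted p = 0.00531), and Q17N23, a pectin methylesterase-like protein that acts on wall pectin, by -0.32 ± 0.09 (adjusted p = 0.00961). The latter was lost without replicate 1 of July or of September (up to 0.196), and after quantile normalization neither was called (0.178 and 0.169). Elongation factor 1-alpha (Q11E4), a factor that delivers charged tRNAs during translation, had 0.71, 0.79 and 0.94 in July and 1.30, 0.93 and 0.90 in September, with overlap. Triose-phosphate isomerase of glycolysis (Q7G9) had -0.29 ± 0.11 (adjusted p = 0.0555, and 0.0394 without July Whorl 0 replicate 1), and the remaining 6 had differences between -0.18 and 0.12.

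The other named spots include the hexose transporter Q13B15, which moves sugars across the plasma membrane, at 0.04 ± 0.08 (SE, adjusted p = 0.757). The folate enzymes of one-carbon metabolism were methylenetetrahydrofolate dehydrogenase (Q10D23) at 0.02 ± 0.13 and serine hydroxymethyltransferase (Q1E13) at -0.14 ± 0.28. The cold acclimation protein Q12L10 had 0.15 ± 0.09 (adjusted p = 0.255) in Whorl 0 and rose by 0.19 ± 0.05 in older needles. None of these 4 was called in Whorl 0. A further 5 named spots had too few values for a test. The CRK1 protein Q7F2 had a value on 2 July arrays and 1 September array, Q13C16 on 3 and 1, and the AP2 ERF factor Q11C18 on none. The subtilase Q14O21 had 0.81, 0.85 and 0.70 in July and no value in September, while the aspartic proteinase Q16J12 had no value in July and -0.04, -0.12 and 0.13 in September. A missing value can be a spot that failed a filter, so no direction was drawn from it. Over the whole array, 25 spots had 3 values in July and none in September in Whorl 0, and 26 had the reverse.

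The largest changes in Whorl 0 were at spots without a description. The deepest falls among those with complete, non-overlapping arrays belonged to Q13M22 and Q8G17. Spot Q13M22 had 2.58, 2.77 and 2.91 in July Whorl 0 and 0.37, 0.35 and 0.33 in September Whorl 0, a fall of -2.40 ± 0.18 (SE, adjusted p = 3.43e-13), and an older group had too few values to test its gap. Spot Q8G17 had 2.90, 2.64 and 2.90 in July and 0.86, 0.37 and 0.35 in September. Older needles stayed near the January pool at this spot, between -0.13 and 0.26 in July and between -0.12 and 0.03 in September. Its gap was 2.76 ± 0.07 in July and 0.58 ± 0.07 in September, and its changes differed by -2.18 ± 0.10 (adjusted p = 5.8e-22).

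Spot Q13K7 had the same course. It had 3.06, 2.70 and 3.09 in July Whorl 0 and 0.99, 0.49 and 0.77 in September Whorl 0, with older medians of -0.09 and -0.11. The gap went from 2.94 ± 0.09 to 0.81 ± 0.09 (SE), and the changes differed by -2.14 ± 0.13 (adjusted p = 6.53e-18). At both spots all September arrays of Whorl 0 were still above all older arrays. No spot had the mirror image at this size, since 55 changes were lower in Whorl 0 than in older needles by more than 1 on the log2 scale and 0 were higher by as much.

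On the other side, Q21P24 and Q1L6 lay below all older arrays in July, an order found at 9.51% of spots, and among them in September. Spot Q21P24 had -0.42, -0.29 and -0.47 in July Whorl 0 and 0.76, 0.56 and 0.16 in September Whorl 0, and its gap went from -0.63 ± 0.15 to 0.03 ± 0.15 (SE). At Q1L6 Whorl 0 had 0.06, 0.08 and -0.05 in July and -0.83, -0.16 and -0.42 in September. Older needles fell further there, from a median of 0.84 to -0.21, and the gap went from -0.88 ± 0.15 to -0.24 ± 0.15. Both tests of the difference lay close to the threshold (adjusted p = 0.0471 and 0.0423), and each was lost without any of 5 of the 6 Whorl 0 arrays (up to 0.206 and 0.241). At Q21P24 the exception was September replicate 3 and at Q1L6 September replicate 1.

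The largest rises in Whorl 0 were changes that older needles shared. Spot Q14I11 had -2.46, -2.86 and -2.48 in July Whorl 0 and -0.83, -0.99 and -0.78 in September, a rise of 1.74 ± 0.34 (SE, adjusted p = 9.57e-05). Spot Q14H23 had -2.15, -1.78 and -2.09 in July and -0.71, -0.06 and -0.39 in September, a rise of 1.62 ± 0.18 (adjusted p = 1.39e-09). Older needles rose by 1.33 ± 0.20 and 1.25 ± 0.10, and Whorl 0 overlapped with them in both months.

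Among undescribed spots with complete and non-overlapping values, those with the largest September gaps had been apart in July as well. Spot Q11L15 had 2.18, 2.22 and 2.02 in July Whorl 0 and 1.39, 2.01 and 1.68 in September Whorl 0, while older needles had medians of -1.34 and -1.13. Its gap was 3.26 ± 0.22 in July and 2.74 ± 0.22 in September (SE), and the changes differed by -0.52 ± 0.31 (adjusted p = 0.384). Spot Q1M2 had gaps of 1.25 ± 0.26 and 1.56 ± 0.26.

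Below the older needles stood Q15D2, with -2.05, -2.20 and -2.29 in July Whorl 0 and -2.31, -1.57 and -1.66 in September Whorl 0. Its gap was -1.09 ± 0.09 in July and -1.35 ± 0.09 in September (SE). Spot Q11I8 rose by 0.95 ± 0.23 in Whorl 0 and by 1.17 ± 0.13 in older needles (in Whorl 0 adjusted p = 0.00122, and 0.0639 without the arrays of replicate number 3), with gaps of -1.07 ± 0.18 and -1.30 ± 0.18. At all of these 4 spots Whorl 0 and older arrays were apart in both months, and the difference between the changes was not called at any (adjusted p from 0.283 to 0.704).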

How the data were processed

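The deposited values are normalized log ratios of a Cy3-labelled sample to the Cy5-labelled January pool, taken as log2, which the authors obtained from GenePix scans with the R package BABAR for common reference designs. Missing values were left missing. No further normalization was applied, and 0 of the columns lacked a sample. Groups of month and whorl were fitted in limma 3.58.1 (R 4.3.3) with 1 mean for each of 22 groups over 65 of 66 arrays, leaving out November Whorl 2 replicate 2 as in the study's network. Benjamini-Hochberg adjusted p under 0.05 over all spots tested was called. The noise-subtracted root mean square takes the sampling variance of the means from the mean squared difference. The limma fits were tested on simulated data.

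Spots named are the 43 the study names and, for the Whorl 0 change, the difference of the changes and the September gap, at most 2 undescribed spots in each direction with the largest difference, adjusted p under 0.05, complete values and groups that do not overlap. Members, lists and tests were chosen with earlier results of these data known. The table pairs no spot with a gene, so pathways beyond the study's own lists were not counted, and no probe sequence is printed. Alternatives were fits on fewer arrays or with the left-out array kept, complete values alone, quantile normalization, blocks of replicate number or pool, replicates left out, and Whorl 1 in place of Whorls 1 to 3. The distance was also taken without noise subtraction and as a median.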

Additional observations from a re-analysis of the deposited data

Results flagged for a closer look

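At 10 spots named in the report the change from July to September differed between Whorl 0 and Whorls 1 to 3 in limma's test of that difference, given here on the log2 scale with adjusted p-values. Most of these differences were negative. They were -2.18 at Q8G17 (adjusted p = 5.8e-22), -2.14 at Q13K7 (6.53e-18), -0.83 at Q11D3 (4.92e-06), -0.63 at Q12A19 (3.14e-05), -0.48 at Q11F13 (0.000197), -0.60 at Q11J18 (0.0349) and -0.59 at Q17J7 (0.045). Positive differences were found at Q21P24 with 0.66 (0.0471), at Q1L6 with 0.64 (0.0423) and at Q16P17 with 0.29 (0.0413). Groups of 3 arrays were not tested for outlying arrays.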

How the results depend on the processing

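More gaps narrowed than widened, and the September distance was smaller than that of July, under every alternative run for them, while the balance of higher and lower calls turned in some. Under quantile normalization 1445 spots rose and 1626 fell in older needles, and 841 lay above and 902 below them in July; 925 spots changed in Whorl 0, 235 changes differed, 203 gaps narrowed and the ratio of the September to the July distance was 0.661. With pools within a month as random blocks (consensus correlation 0.223), 880 changes differed, 3092 spots were apart in July and 914 in September, and 103 gaps widened. With Whorl 1 in place of Whorls 1 to 3, 306 changes differed, 1407 spots were apart in July and 271 in September, 286 gaps narrowed and 20 widened. When replicates were left out, 1061 to 1477 spots changed in Whorl 0, 254 to 562 changes differed, 1332 to 2510 spots were apart in July and 246 to 560 in September, 241 to 528 gaps narrowed, 13 to 80 widened, and the distance ratio ran from 0.506 to 0.653. The lowest Whorl 0 count, 1061, and September count, 246, came without replicate number 1. Among named spots, 9 of 20 calls in Whorl 0 and 2 of 6 calls of a differing change were kept under every alternative. No called difference changed sign, while 21 of 92 gaps of the named spots did so without being called.

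Replicate numbers were not shown to pair the samples of the months, since the deviations of July and September Whorl 0 arrays with the same number correlated at -0.04, 0.16 and 0.20. Within a month Whorl 0 and Whorl 1 deviated together, at 0.29, 0.43 and 0.28 in July and 0.54, 0.40 and 0.51 in September, as did Whorls 0 and 3 in September (0.41, 0.22 and 0.20), while Whorl 0 had a pair at or below 0.1 with Whorl 2 in both months and with Whorl 3 in July. The gaps, the changes of the older whorls and the tests of a differing change take the arrays of a month as independent. So do the permutation tests of Whorl 0 against Whorl 1, whereas the pool block above does not. With the replicate number as a block, 1767 spots changed in Whorl 0, 644 changes differed, 653 spots were apart in September, 588 gaps narrowed and 56 widened, which are all within 1.5 times. Precision is limited by 3 arrays a group, and signal over background was not used here.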
